A study of Rattus norvegicus with 6 samples.

Results

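Retnla, Arg1, Alox15, Slc7a2 and Nos2 are 5 rat genes tied to the alternative activation of macrophages and to its counterpart, the classical state. Their probes were found by gene name, older names included, on whole-genome arrays of rat lung: 6 probes of 41012, for 5 of 15270 named genes. They were chosen by their measured log2 differences between these groups, so their levels are given as a description, without a p-value. The arrays measured RNA of the right lung of male Wistar rats that were 9 weeks old when exposure began. The rats breathed an aerosol of ultrafine nickel oxide (NiO), which the labels call a positive control, an aerosol of C60 fullerene, a cage of carbon atoms, or clean air. All groups shared the same exposure chamber regime of 6 hours a day, 5 days a week, for 4 weeks. Lungs were taken 33 days (1 month) or 3 days after the last exposure, which gave 6 groups: NiO, C60 and control at 1 month, and NiO, C60 and control at 3 days. The 1-month groups held 4 arrays each. At 3 days there were 4 NiO, 2 C60 and 3 control arrays, and nothing in the labels says beyond the group sizes that an array stands for 1 rat.

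Macrophages that meet the type 2 cytokines interleukin 4 and interleukin 13 signal through the receptor chain Il4r and the transcription factor Stat6, and in rodents they then make Retnla, Arg1 and chitinase-like proteins. Macrophages that meet interferon gamma or bacterial products instead make the inducible nitric oxide synthase Nos2. Arginase (Arg1) and Nos2 compete for the same substrate, arginine, which the transporter Slc7a2 brings into the cell. Alox15 is a lipoxygenase that oxidises arachidonic and linoleic acid, and it is made by alternatively activated macrophages, eosinophils and airway epithelium. In whole lung, more cells of a type and more RNA per cell cannot be told apart.

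All levels below are log2 of the background-corrected signal relative to the 75th percentile of the same array, so 0 marks that percentile and 1 unit is a doubling. Levels of different probes are not comparable with each other. Between 57.4% and 78.3% of spots were well above background on the 21 arrays used. The lowest shares, 57.4% and 60.7%, were those of the 2 C60 arrays of 3 days. All 10 markers of alveolar type II cells were above background on every array, as were 18 of 19 macrophage markers, which fits the labelled tissue. Slide cannot be told apart from group, because no slide of the 6 carried a second group, and the 2 scan days were the 2 times. The NiO and C60 comparisons at one time share the same control arrays.

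The 5 genes rest on few oligonucleotides, and Slc7a2 on a pair that gave different readings, so those sequences are shown. Each is 60 bases long. Per the scanner files, in rat build rn4, the Retnla probe lies at chr11:53206606-53206665 on the minus strand, the Alox15 probe at chr10:57186202-57186261 on the minus strand and the Nos2 probe at chr10:65070211-65072250 on the plus strand. The Nos2 span of 2040 bases for a 60-base probe means that it crosses an intron. The Slc7a2 probes lie at chr16:54752500-54752559 and chr16:54763606-54763665, both on the minus strand, with 11106 bases between their starts. The Arg1 probe lies at chr1:21011150-21011209 on the plus strand and is given by position only. No base is in capitals, since no motif or site is marked.
Retnla: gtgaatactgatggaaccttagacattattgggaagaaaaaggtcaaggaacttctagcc
Alox15: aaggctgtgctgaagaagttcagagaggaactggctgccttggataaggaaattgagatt
Slc7a2 probe A_43_P12265: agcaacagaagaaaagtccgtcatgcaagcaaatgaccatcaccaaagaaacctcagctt
Slc7a2 probe A_44_P313684: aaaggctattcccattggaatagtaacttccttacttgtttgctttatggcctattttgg
Nos2: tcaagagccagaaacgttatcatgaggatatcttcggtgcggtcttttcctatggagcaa

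Retnla, also called FIZZ1 or RELM alpha, is a secreted protein of alternatively activated macrophages and of inflamed airway and alveolar epithelium in rodents. At 1 month its level was 2.63, 2.03, 2.63 and 1.95 in the 4 NiO lungs, 0.51, 0.11, 0.88 and 1.48 in the 4 C60 lungs, and 0.04, -2.41, -0.24 and 0.39 in the 4 control lungs. Every NiO lung was above every C60 lung and every control lung, and the lowest C60 lung lay under the highest control lung. NiO and control arrays were fully separated for 37.1% of all features at 1 month, and NiO and C60 arrays for 12.4%. NiO lungs were higher than control lungs by 2.87 log2 units (SE 0.68), a 7.30-fold difference, and C60 lungs by 1.30 (SE 0.68). The C60 difference rested on the control lung at -2.41: without it, it was 0.69, and the NiO difference 2.25.

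At 3 days Retnla stood at -1.04, 1.85, 1.42 and 2.17 in NiO lungs, 0.20 and 0.37 in C60 lungs, and 0.00, -1.88 and -2.48 in control lungs. Of the NiO lungs 3 were above every other lung of that time, and 1 lay under the highest control lung. The NiO difference was 2.56 (SE 0.73), or 5.88-fold. It was 3.27 without the low NiO lung, 3.28 without the high control lung and 2.04 without the lowest control lung. Both C60 lungs were above all 3 control lungs, by 1.74 on average (SE 0.88). Such a separation was found for 45% of all 25225 features in that comparison, in which 2 arrays were set against 3. The NiO difference was 0.31 larger at 1 month than at 3 days (SE 1.00), so no change between the times could be told from the spread.

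Ordered by mean level, Retnla ran from NiO at 1 month (2.31) over NiO at 3 days (1.10), C60 at 1 month (0.75), C60 at 3 days (0.29) and control at 1 month (-0.56) to control at 3 days (-1.46). Each neighbouring pair in that order overlapped. The control lungs varied widely, with an SD of 1.26 at 1 month and 1.29 at 3 days, and the NiO lungs of 3 days had an SD of 1.46.

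Arg1, the cytosolic arginase that splits arginine into urea and ornithine, separated the NiO lungs most clearly at 3 days. Its level was then 4.23, 4.85, 5.13 and 4.81 in NiO lungs, 2.20 and 2.32 in C60 lungs, and 2.15, 2.29 and 2.09 in control lungs. The NiO lungs lay above all the rest. Such a separation was found at 3 days for 23.1% of all features against control and 25.3% against C60. The C60 and control lungs overlapped. NiO exceeded control by 2.58 (SE 0.22), or 5.97-fold, and C60 differed from control by 0.09 (SE 0.26), with no separation of the groups.

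At 1 month Arg1 stood at 3.73, 3.60, 4.58 and 3.70 in NiO lungs, 2.77, 2.63, 2.81 and 2.84 in C60 lungs, and 2.99, 3.16, 2.52 and 2.94 in control lungs. All 4 NiO lungs were again above all others. At 1 month such a separation was found for 37.1% of all features against control and 12.4% against C60. The NiO difference was 1.00 (SE 0.20), or 2.00-fold, and it was 0.77 without the NiO lung at 4.58, which stood apart from its group. C60 lungs differed from control lungs by -0.14 (SE 0.20). The NiO effect on Arg1 was smaller at 1 month, with a difference of -1.58 (1 month minus 3 days, SE 0.30). The Arg1 level of the control lungs was 0.73 higher at 1 month than at 3 days (SE 0.22), without overlap. Arrays of the controls at the 2 times did not overlap for 49.9% of all features.

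In the order of mean levels, Arg1 was highest in NiO lungs at 3 days (4.75) and next in NiO lungs at 1 month (3.90), and these overlapped. Control at 1 month (2.90) and C60 at 1 month (2.76) overlapped below them, and C60 at 3 days (2.26) and control at 3 days (2.18) overlapped at the bottom. The steps between these 3 pairs did not overlap.

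Alox15 went the other way. In the 3-day groups it stood at -3.02, -4.08, -4.53 and -4.28 in NiO lungs, -2.11 and -1.58 in C60 lungs, and -2.01, -0.84 and -1.67 in control lungs. Every NiO lung was below every control lung and every C60 lung compared. Such a separation was found for 23.1% of all features against control and 25.3% against C60. On 2 of the 4 NiO arrays the probe was not well above background. NiO minus control was -2.47 (SE 0.53), which is 5.55-fold lower. Under the normexp background correction, which compresses dim signals, the same difference was -1.17. C60 differed from control by -0.34 (SE 0.63), within the spread.

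At 1 month Alox15 was at -4.79, -4.31, -4.18 and -2.85 in NiO lungs, -2.75, -1.92, -1.45 and -1.63 in C60 lungs, and -3.91, -3.90, -2.04 and -2.34 in control lungs. The control lungs fell into a low and a high pair, and both particle groups overlapped them. NiO differed from control by -0.99 (SE 0.49), with -0.65 and -1.38 as the extremes when 1 lung was left out. C60 differed by 1.11 (SE 0.49) in the opposite direction. Set against each other, NiO lungs were lower than C60 lungs, with a difference of -2.10 (SE 0.49) at 1 month and -2.13 (SE 0.60) at 3 days, and with no overlap at either time. Such a separation of NiO and C60 arrays occurred for 12.4% of all features at 1 month and 25.3% at 3 days. A C60 array of 3 days that entered no comparison read -3.77, below the NiO lung of that time at -3.02.

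The 6 groups ordered from control at 3 days (-1.50), C60 at 3 days (-1.84), C60 at 1 month (-1.93) and control at 1 month (-3.05) to NiO at 3 days (-3.98) and NiO at 1 month (-4.03), and each neighbouring pair overlapped. In control lungs Alox15 was lower at 1 month than at 3 days, with a difference of -1.54 (SE 0.53). These lungs did not overlap, which held for 49.9% of all features. The NiO effect was 1.49 higher at 1 month than at 3 days (SE 0.72).

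Slc7a2, the cationic amino acid transporter CAT2 that takes up arginine, was dim on both of its probes. On probe A_44_P313684 it stood at -4.52, -4.25, -3.51 and -4.33 in NiO lungs at 1 month, -5.75, -6.15, -5.50 and -6.06 in C60 lungs, and -5.66, -5.87, -5.31 and -5.03 in control lungs. All NiO lungs were above all others, a separation found for 37.1% of all features against control and 12.4% against C60. This probe was well above background on all 4 NiO arrays, on no C60 array and on 2 of the 4 control arrays. NiO exceeded control by 1.32 (SE 0.31), or 2.49-fold, and C60 by at least 2.87-fold, the bound being set against the lowest signal above background where the C60 probe was not measured. At 3 days the values were -3.86, -5.17, -4.48 and -4.10 in NiO lungs, -6.00 and -4.71 in C60 lungs, and -5.79, -5.32 and -5.56 in control lungs, of which only 2 NiO arrays were above background. With control levels raised to at least the lowest signal above background, NiO was 1.56-fold higher than control. That value includes the NiO arrays that were not above background, so it is no strict lower bound. With normexp correction the NiO difference on this probe was 0.14 at 1 month and 0.45 at 3 days, so its size depended on this setting.

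Probe A_43_P12265 gave another picture. At 1 month it read -5.35, -4.68, -4.26 and -4.95 in NiO lungs, -5.91, -6.72, -5.90 and -5.90 in C60 lungs, and -5.21, -4.38, -3.92 and -3.93 in control lungs. The NiO lungs overlapped the controls, with a difference of -0.45 (SE 0.32), opposite in sign to the other probe. The C60 lungs lay below all control lungs, as the arrays of these groups did not overlap for 27.7% of all features, and were not above background on any array. With C60 levels raised to at least the lowest signal above background, C60 lungs were 2.65-fold lower than controls. That value includes 1 control array not above background, so it is no strict lower bound. The other probe of the gene put C60 at -0.40 (SE 0.31) against control, and normexp correction put this probe at -0.20. At 3 days it read -3.85, -3.86, -4.09 and -4.32 in NiO lungs, -6.17 and -4.90 in C60 lungs, and -4.19, -4.75 and -4.95 in control lungs, a NiO difference of 0.60 (SE 0.35). The 2 Slc7a2 probes correlated at r = 0.55 over the 21 arrays, which share groups. Ordered by mean, A_44_P313684 ran from NiO at 1 month (-4.15) and at 3 days (-4.40) to C60 at 1 month (-5.86), and A_43_P12265 from NiO at 3 days (-4.03) and control at 1 month (-4.36) to C60 at 1 month (-6.11). Neighbours in either order overlapped.

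Nos2, the inducible synthase that makes nitric oxide from arginine, was not well above background on any of the 21 arrays, although 10 spots were averaged. Its level ranged from -6.99 to -6.92 in NiO lungs, -7.45 to -6.43 in C60 lungs and -6.67 to -6.05 in control lungs at 1 month. In the 3-day groups it ranged from -6.38 to -5.98 in NiO lungs, -6.38 to -6.03 in C60 lungs and -6.95 to -5.83 in control lungs. No fold is given for it, and it did not enter the test.

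**Figure D1:**
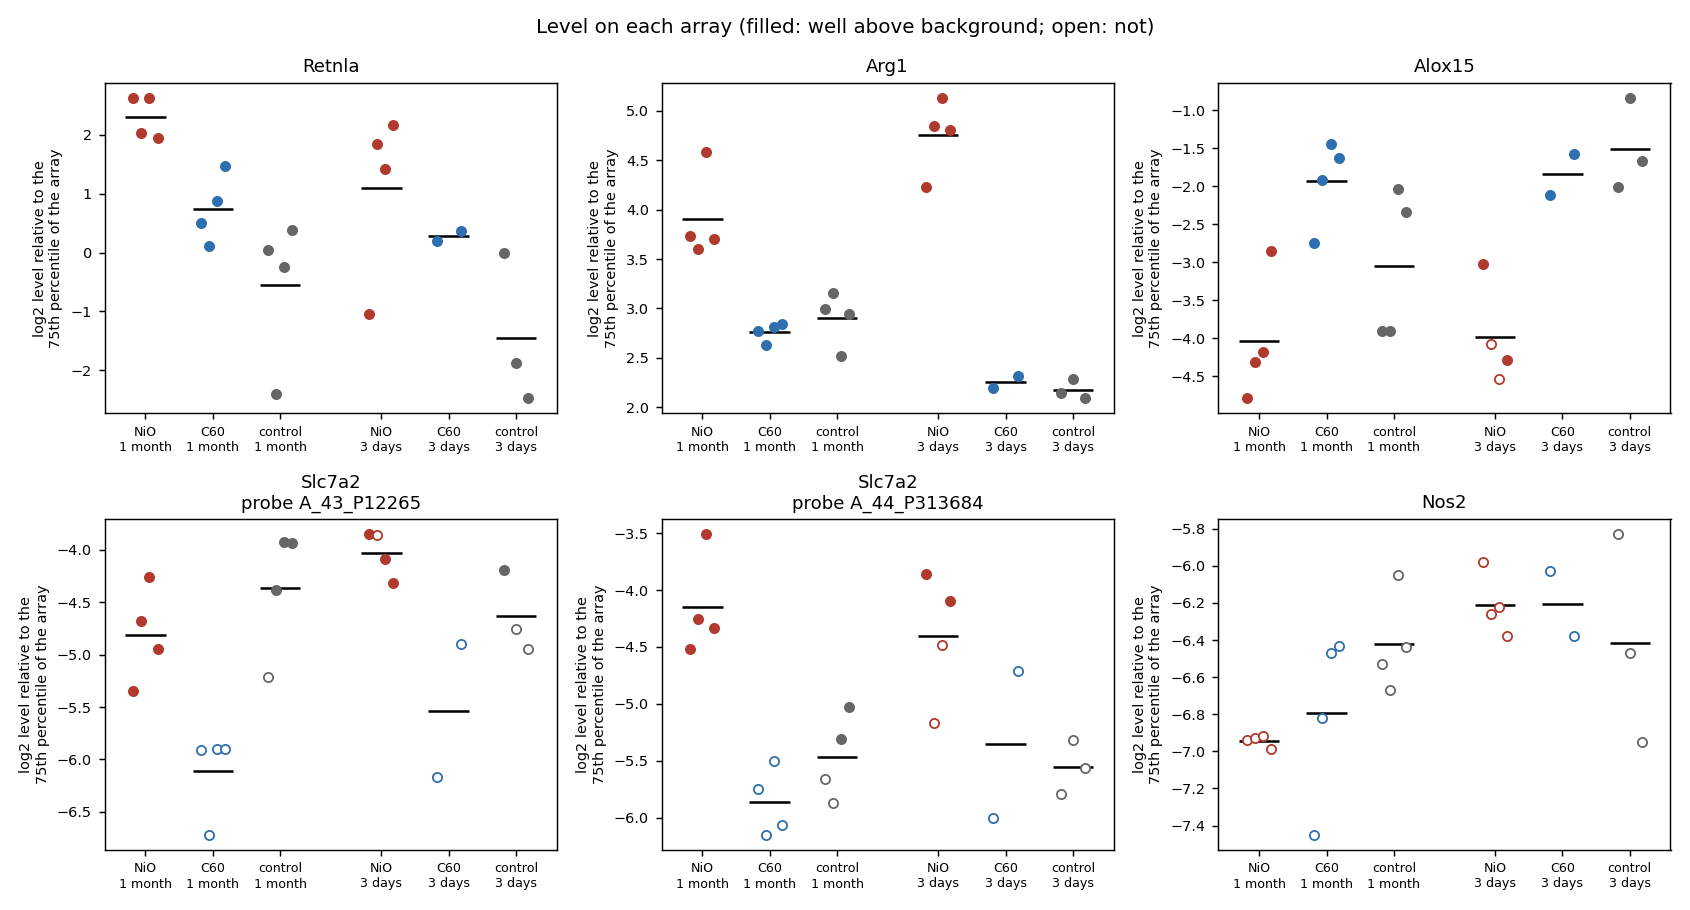
Level of each probe on each array (y axis: log2 relative to the 75th percentile of the array), with 1 point per lung array and a bar at the group mean, for NiO, C60 and control at 1 month (left) and 3 days (right). Filled points were well above background and open points were not. At each time the NiO mean is the highest of the 3 groups for Retnla and Arg1 and the lowest for Alox15, with single lungs that overlap for Retnla at 3 days and Alox15 at 1 month. Nos2 is open throughout.

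**Figure D2:**
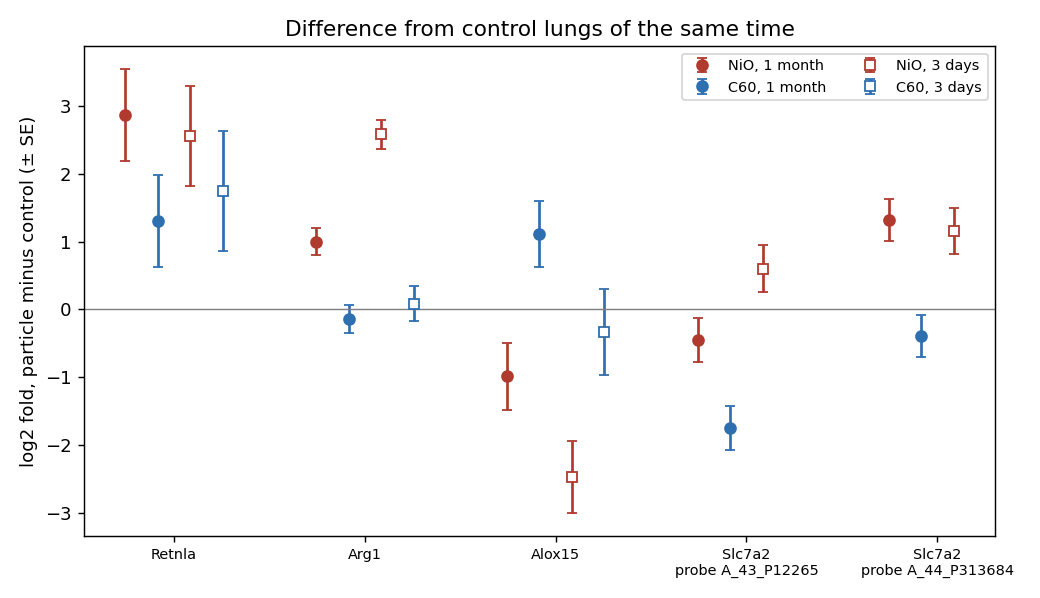
Difference of each particle group from the control lungs of the same time (y axis: log2 fold as measured, ± SE of the fit) for the 4 genes tested, with both Slc7a2 probes. NiO points of Retnla and Arg1 lie above 0 at both times (Arg1 at 1.00 and 2.58) and those of Alox15 below it. The Slc7a2 points of C60 at 1 month, and of NiO at 3 days on probe A_44_P313684, have 1 side that was not above background, and C60 at 3 days is left out for both probes.

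Nos2 did not pass the background filter and 4 genes did. In NiO against control, 2 of the 4 were called at 1 month (Retnla and Arg1), where 30.9% of all features were called, and 3 at 3 days (these and Alox15), where 18.8% were. In C60 against control, 1 of the 4 was called at 1 month, Slc7a2 on its probe A_43_P12265, where 19.8% of all features were called. At 3 days none of the 4 was called by limma for C60, where 4.93% of features were. Between NiO and C60 lungs, Arg1 and Alox15 were called at 1 month, where 1.21% of features were, and these and Slc7a2 at 3 days, where 7.71% were. The difference between the times was called for Arg1 in the NiO effect (37.5% of features) and for none of the 4 in the C60 effect (10.4%). Between the controls of the times, Arg1 and Alox15 were called (46.1% of features). Slc7a2 stands in these counts by its brighter probe, A_43_P12265. Nothing is read from these counts, because the comparisons chose the genes.

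Genes near these 5 in the same pathways were taken from fixed lists, and here a gene is called higher or lower at a Benjamini-Hochberg adjusted p under 0.05 in limma over all 25225 features. The first list held other genes named for alternatively activated or tissue-repair macrophages, of which 27 were tested. In NiO lungs 7 of them rose and 3 fell at 1 month, where 11.9% of all features rose and 18.9% fell. At 3 days 6 rose and 1 fell, where 11% rose and 7.81% fell. The median of the 27 was -0.06 at 1 month and 0.21 at 3 days, beside -0.12 and 0.04 over all features. The 3-day count was 11 higher and 3 lower without NiO lung 1, and 4 higher and 1 lower without control lung 1. Against clean air, C60 raised 1 and lowered 2 at 1 month, where 7.3% of all features rose and 12.5% fell. At 3 days limma called none of the 27 in C60 lungs, and 3 had an unadjusted p under 0.05.

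Within this list, a scavenger receptor and a pair of chemokines had the largest rises in NiO lungs at 3 days. Msr1, the macrophage scavenger receptor, rose by 2.79 (SE 0.49, adjusted p = 0.0011). Its level at that time was 0.85, 1.51, 0.45 and 1.39 in NiO lungs against -2.02, -1.13 and -2.05 in control lungs, with no overlap. Ccl22, which attracts type 2 helper T cells through Ccr4, stood at -0.57, -0.81, -0.81 and -0.63 in NiO lungs against -3.22, -3.28 and -2.84 in control lungs, a rise of 2.41 (SE 0.15, adjusted p = 2.3e-08). Its other probe gave 1.68. Ccl17, the second ligand of that receptor, rose by 1.39 (adjusted p = 0.00033). At 1 month these chemokines differed from control by 0.33 for Ccl22 and 0.28 for Ccl17, short of the threshold, and the drop of the effect between the times was itself called for both, by -2.08 and -1.11.

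Chi3l1, a chitinase-like lectin, rose in NiO lungs by 1.56 at 1 month (adjusted p = 0.00063) and by 0.97 at 3 days (adjusted p = 0.021). Igf1, a growth factor of tissue repair, rose by 1.19 at 1 month (adjusted p = 0.0003) and by 0.86 at 3 days (adjusted p = 0.0052), and its other probes gave 1.01, 1.71 and 0.12 at 1 month. Ccl11, the eosinophil chemokine eotaxin, fell by 1.55 at 1 month (adjusted p = 0.011). Ppargc1b, a coactivator of mitochondrial genes, fell by 1.82 on one probe, while its other probe gave 1.28. Il1rn, the interleukin 1 receptor antagonist, rose by 0.36 at 1 month (adjusted p = 0.027) and fell by 0.53 at 3 days (adjusted p = 0.008). The mannose receptor Mrc1 differed by 0.33 at 1 month and 0.07 at 3 days, neither past the threshold, and its other probe gave 0.50 and -0.10. At 1 month all its NiO lungs lay above all control lungs, as for 37.1% of all features. Its lowest adjusted p under an alternative was 0.0078 at that time. Retnla and Arg1 were higher, Alox15 was lower (called at 3 days only) and Mrc1 was not called in the main fit. The 5 genes are therefore called here by their own names and not by the name of a cell state. The call of Msr1 at 1 month (1.22, adjusted p = 0.049) was lost in 8 alternatives, among them without any 1 of the 4 control lungs, and that of Chi3l1 at 3 days without the first or the second control lung.

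Of 14 genes of the interleukin 4 and 13 pathway, 2 rose and 2 fell in NiO lungs at 1 month. Over all features 11.9% rose and 18.9% fell at that time. At 3 days none of the 14 rose and 4 fell, where 11% of all features rose and 7.81% fell. Without NiO lungs 2 and 3, 1 of the 14 fell at 3 days. The list's median was -0.13 at 1 month and 0.02 at 3 days, beside -0.12 and 0.04 over all features. Il4r, the shared receptor chain, stood at 1.72, 1.94, 1.73 and 1.75 in NiO lungs against 1.23, 0.27, 1.14 and 1.03 in control lungs at 1 month. At 3 days it stood at 2.57, 0.99, 1.34 and 1.98 in NiO lungs against 2.95, 3.03 and 2.76 in control lungs. It was thus higher in NiO lungs at 1 month, by 0.87 (SE 0.27, adjusted p = 0.022), and lower at 3 days, with a difference of -1.19 (SE 0.29, adjusted p = 0.0096), and the difference between the times was called (2.06, SE 0.39). The 1-month call was lost without control lung 2 or NiO lung 2.

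Cebpb, a transcription factor upstream of Arg1 in mouse macrophages, had the same reversal, with 1.13 at 1 month (adjusted p = 0.00042) and -0.81 at 3 days (adjusted p = 0.007). Both 3-day calls were lost without NiO arrays 2 and 3, at -0.64 for Il4r and -0.49 for Cebpb. Il2rg, the common gamma chain, fell at 1 month by 1.91 in NiO lungs (adjusted p = 4.8e-05) and by 1.66 in C60 lungs (adjusted p = 0.00033), against the same controls. The alarmin Il33 read -0.50 at 3 days on its brighter probe and 0.75 on the other, and Il13ra1, a receptor chain for interleukin 13, read -0.35 on the brightest of 4 probes and -0.12, -0.02 and 0.06 on the others. These 3-day calls were lost without control lung 1 or NiO lung 3 for Il33 and without control lung 2 for Il13ra1. Stat6 differed by 0.11 at 1 month and 0.01 at 3 days, short of the threshold. Il13 was above background on 10 of 21 arrays, all of 1 month, where it differed by -0.83, short of the threshold. Il4 did not pass the filter.

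Around arginase and nitric oxide synthase, 25 genes of arginine and polyamine metabolism were tested. In NiO lungs 7 rose and 2 fell at 1 month, where 11.9% of all features rose and 18.9% fell. At 3 days 5 rose and 1 fell, where 11% of all features rose and 7.81% fell. The list medians were 0.07 at 1 month and 0.22 at 3 days, beside -0.12 and 0.04 over all features. The 3-day count was 10 higher and 4 lower without NiO lung 1. Slc7a7, the y+L arginine transporter subunit, rose at both times. It stood at -0.49, -0.17, 0.00 and -0.63 in NiO lungs against -1.78, -1.93, -1.70 and -1.67 in control lungs at 1 month, a rise of 1.45 (SE 0.15, adjusted p = 2.6e-05). At 3 days it stood at -0.06, -0.75, -0.73 and -0.40 in NiO lungs against -1.55, -1.43 and -1.55 in control lungs, a rise of 1.03 (SE 0.16, adjusted p = 0.00052).

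Slc7a1, another arginine transporter, rose by 0.84 at 1 month and 0.69 at 3 days, though its other probe gave -0.53 and 0.30. Gch1, which starts the synthesis of the nitric oxide synthase cofactor tetrahydrobiopterin, rose by 0.72 at 1 month (adjusted p = 0.00093) and 1.01 at 3 days (adjusted p = 7.4e-05). Ass1, which rebuilds arginine from citrulline, stood at 0.23, 0.18, -0.30 and 0.05 in NiO lungs against -0.02, -0.56, 0.49 and 0.26 in control lungs at 1 month. At 3 days it stood at -0.39, -1.35, -0.74 and -0.85 in NiO lungs against 0.75, 0.85 and 0.07 in control lungs, and there its difference was -1.39 (SE 0.25, adjusted p = 0.0013). At 1 month its difference was 0.00 and not called.

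Of the enzymes of polyamine and proline metabolism, Sat1, which acetylates polyamines for breakdown, rose by 0.73 at 3 days (adjusted p = 0.0042), a call lost without NiO arrays 2 and 3, and differed by -0.01 at 1 month. Srm, spermidine synthase, rose by 0.74 at 1 month (adjusted p = 0.0019) and differed by -0.23 at 3 days. Odc1, the enzyme that turns ornithine into putrescine, differed by 0.37 at 1 month and 0.25 at 3 days, and the mitochondrial arginase Arg2 by 0.19 and 0.55, none past the threshold. Pycr1, which makes proline, rose in NiO lungs at 3 days (adjusted p = 0.013), a call lost without control lung 1 or 3. No control array was above background. With control levels raised to at least the lowest signal above background, the rise was 1.61-fold. That value includes NiO lung 2, which was not above background either. Nos3, the endothelial nitric oxide synthase, read 0.75 at 1 month in NiO lungs (adjusted p = 0.049) and 0.97 in C60 lungs (adjusted p = 0.024). The NiO call of Nos3 was lost in 9 alternatives, among them without any 1 of the 4 NiO lungs, and the C60 call without control lung 2 or C60 lung 1, 2 or 3.

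Alox15 belongs to the lipoxygenases, and 21 other eicosanoid genes were tested. In NiO lungs 4 rose and 2 fell at 1 month, where 11.9% of all features rose and 18.9% fell. At 3 days 4 rose and 4 fell, where 11% of all features rose and 7.81% fell. The list medians were 0.00 at 1 month and -0.09 at 3 days, beside -0.12 and 0.04 over all features. At 3 days 2 rose without control lung 1 or 2 or NiO lung 3. Alox5, which makes leukotrienes, was lower in the same lungs as Alox15. At 3 days it stood at -0.17, -0.24, 0.09 and -0.17 in NiO lungs against 0.78, 0.88 and 0.86 in control lungs, a difference of -0.96 (SE 0.12, adjusted p = 3.2e-05). At 1 month it differed by -0.06 in NiO lungs, short of the threshold, and was higher in C60 lungs by 0.50 (adjusted p = 0.0056).

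Lta4h, the next enzyme towards leukotriene B4, read 0.58 at 1 month (adjusted p = 0.0011) and -0.45 at 3 days (adjusted p = 0.012). Tbxas1, thromboxane synthase, rose by 1.14 at 1 month (adjusted p = 0.0001) and 0.83 at 3 days (adjusted p = 0.0019). Ptger2, a prostaglandin E2 receptor, rose by 0.88 at 1 month (adjusted p = 0.0019). Pla2g4a, the phospholipase that frees arachidonic acid, rose by 0.58 at 3 days (adjusted p = 0.00065), and Ptgis, prostacyclin synthase, fell by 0.63 (adjusted p = 0.02). The Ptgis call was lost without control lung 2 or 3 or NiO lung 2 or 3, and that of Pla2g4a when arrays were scaled by their median. Alox12 differed by 0.36 at 1 month, short of the threshold, and was above background on no 3-day array, and Alox12e was above background on no array. At 1 month Gpx4, which reduces lipid hydroperoxides, rose by 0.32 (adjusted p = 0.01), a call lost with normexp correction, and the call of the receptor Ptger4 (-0.36) did not hold either, since quantile normalization gave 0.025.

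**Figure D3:**
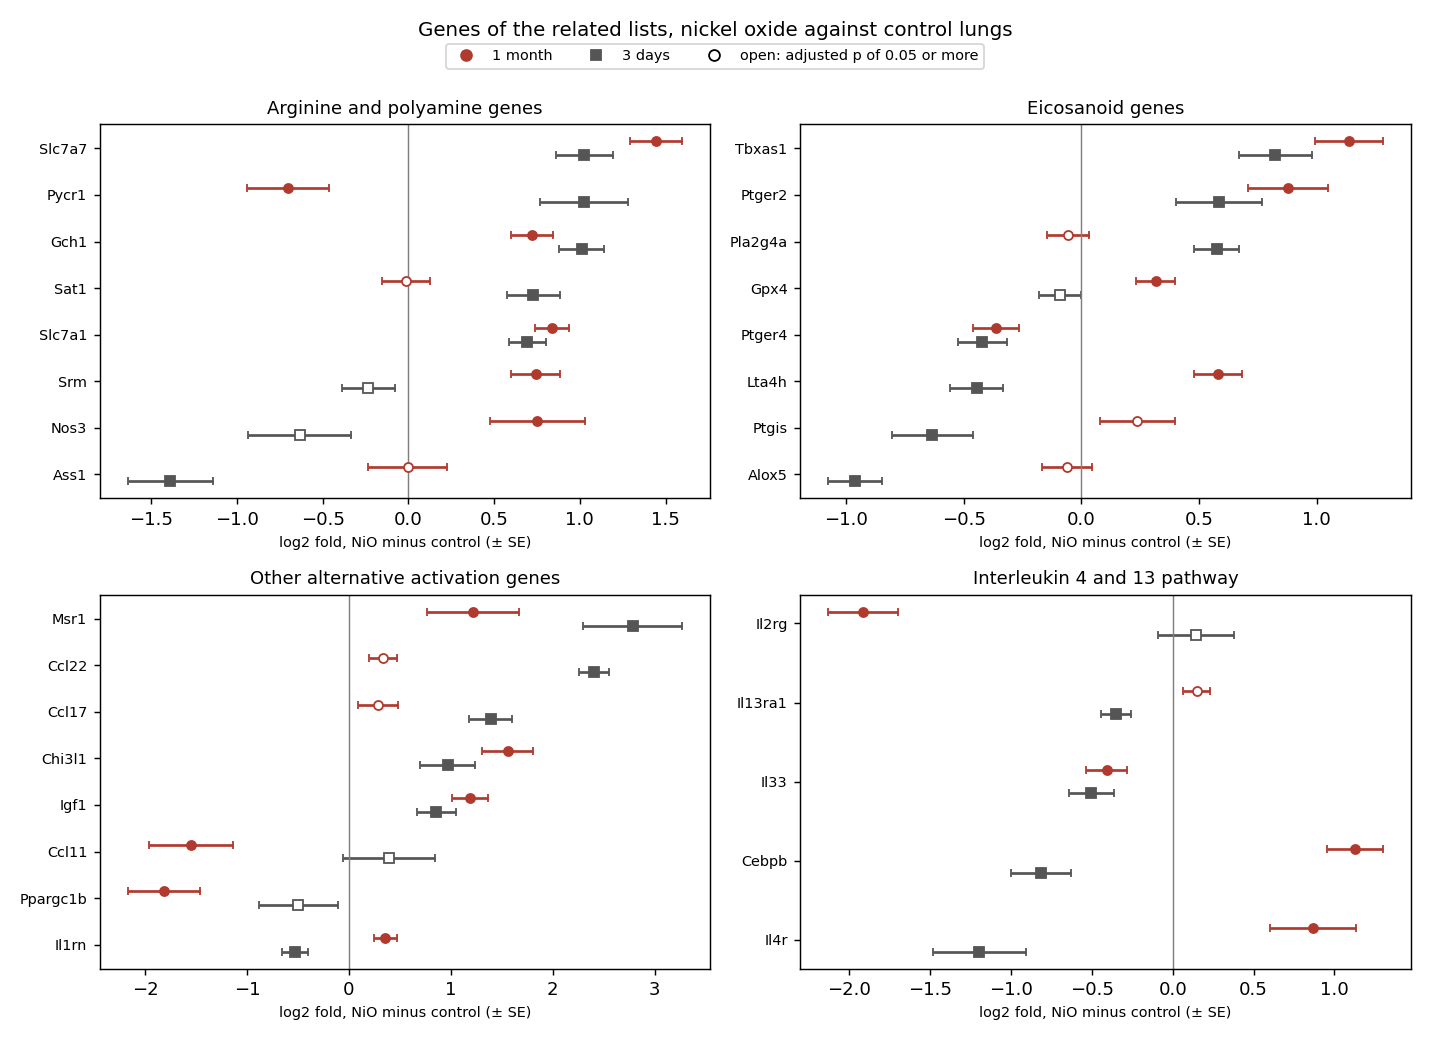
Named genes of 4 lists in NiO lungs against control lungs (x axis: log2 fold as measured, ± SE of the fit), with red circles for 1 month and grey squares for 3 days. Filled symbols had an adjusted p under 0.05, and the 3-day value of Pycr1 has controls that were not above background. Slc7a7 and Tbxas1 were higher at both times, whereas Il4r, Cebpb, Lta4h and Il1rn lay below 0 at 3 days and above it at 1 month.

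Among the relatives of Retnla, resistin (Retn) differed in NiO lungs by -0.89 at 1 month and 0.76 at 3 days, and Retnlg by 0.27 and -0.06. Limma called neither, and neither had an unadjusted p under 0.05. No probe was named for Retnlb.

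Genes of classical activation, 22 tested, gave 0 higher and 4 lower in NiO lungs at 1 month, and 2 higher and 2 lower at 3 days. Their medians were -0.05 and 0.11, beside -0.12 and 0.04 over all features. Of all features 11.9% were higher and 18.9% lower at 1 month, and 11% were higher and 7.81% lower at 3 days. The 4 of 22 lower at 1 month thus say nothing particular of this list. The 3-day count was 5 higher and 4 lower without NiO lung 1, and 2 and 0 without control lung 2. At 1 month 2 were lower without control lung 2 or NiO lung 2 or 3, and scaling by the array median gave 5 higher and 1 lower. Cxcl9, an interferon-induced chemokine, fell by 1.35 at 1 month (SE 0.20, adjusted p = 0.00029). Gbp2, an interferon-induced GTPase, fell by 0.63 (adjusted p = 0.011), a call lost when arrays were scaled by their median. Interferon gamma itself (Ifng) read -0.76 (adjusted p = 0.025), a call lost in 6 alternatives, among them without control lung 2 or NiO lung 2 or 3. At 3 days Nfkbiz, a nuclear regulator of cytokine genes, rose by 0.77 (adjusted p = 0.00067). Socs1, an inhibitor of interferon signalling, read -1.04 (adjusted p = 0.042) and lost its call in 9 alternatives, among them without any 1 control lung. Il1b differed by 0.04 at 1 month and 0.25 at 3 days, short of the threshold, and Tnf did not pass the filter.

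In C60 lungs 8 genes of the 6 lists rose and 5 fell at 1 month, and 3 rose and 2 fell at 3 days. The lists held 27, 14, 25, 21, 2 and 22 tested genes. Of all features 7.3% rose and 12.5% fell at 1 month, and 2.95% rose and 1.98% fell at 3 days. Beyond Il2rg, Nos3 and Alox5, the named calls at 1 month were Srm (0.51, adjusted p = 0.022), Gpx4 (0.30, adjusted p = 0.021), Ppargc1b (-1.37 on one probe and 0.57 on the other) and the fatty acid receptor Cd36 (-0.97, adjusted p = 0.035). Those of Srm, Gpx4 and Cd36 were lost without control lung 2 and without C60 lungs 1 or 2. At 3 days Il10ra read 1.69, Cebpb -0.86 and Pla2g4a 0.40, with adjusted p of 0.025, 0.03 and 0.049. None of these 3 was called without the second C60 lung or without the first control lung.

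Markers of other cells were read beside these results. In NiO lungs 6 of 19 macrophage markers rose and none fell at 1 month, and likewise 6 and none at 3 days, where 11.9% and 11% of all features rose. Without 1 lung, 2 to 7 rose at 1 month (2 without control lung 2, 3 without NiO lung 3). At 3 days 3 to 8 rose (3 without control lung 1 or 2 or NiO lung 3, 8 without NiO lung 1, where 1 also fell). The log2 of their summed level was 8.83 to 9.10 in NiO lungs against 8.90 to 9.06 in control lungs at 1 month, and 8.79 to 9.70 against 8.73 to 9.01 at 3 days. Their mean log2 level, which weights dim genes equally, was 1.55 to 2.11 in NiO lungs against 1.37 to 1.50 at 1 month, and 1.72 to 1.86 against 1.30 to 1.38 at 3 days. Cd68, a lysosomal protein of macrophages, rose by 0.99 at 1 month and 0.66 at 3 days. In C60 lungs limma called none of the 19 at either time, with 1 and 2 at an unadjusted p under 0.05. The part of macrophage number in the levels of Retnla and Arg1 was not tested.

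Of 7 neutrophil markers tested, Cd177 rose by 2.41 at 1 month and 4.47 at 3 days, and 1 other, Cxcr2, was called, with -1.12 at 1 month. The log2 summed level of the 7 was 2.52 to 4.67 in NiO lungs against 2.36 to 2.96 in control lungs at 1 month, and 4.37 to 4.68 against 2.31 to 3.00 at 3 days. Cd177 alone stood at 3.91 to 4.40 in NiO lungs at 3 days. The median log2 fold of the 7 was 0.11 at 1 month and -0.13 at 3 days, beside -0.12 and 0.04 over all features. The defining eosinophil genes Epx, Prg3 and Il5ra were above background on no array, and limma called none of the 4 eosinophil markers tested in NiO lungs, none with an unadjusted p under 0.05. The log2 summed level of those 4 was -0.10 to 0.39 in NiO lungs against -0.28 to 1.81 in control lungs at 1 month, and -0.90 to 0.93 against -0.56 to 0.28 at 3 days.

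The club cell protein Scgb1a1 was lower in NiO lungs at 3 days (-0.79, adjusted p = 0.017) and higher in C60 lungs at 1 month (0.76, adjusted p = 0.014). It was the 1 airway marker of 9 called in each, where 7.81% of all features fell and 7.3% rose. In NiO lungs at 1 month the 1 airway marker called was Bpifa1 (-1.28, adjusted p = 0.033), where 18.9% of all features fell. A count of 1 of 9 says nothing particular of these markers. The log2 summed level of the 9 was 6.82 to 7.50 in NiO lungs, 7.50 to 8.25 in C60 lungs and 7.35 to 7.93 in control lungs at 1 month, and 7.64 to 8.15, 7.18 to 7.38 and 7.44 to 7.88 in the same groups at 3 days. The part of airway epithelium in the level of Alox15 was not tested.

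Of mast cell markers, Tpsab1 fell by 0.86 and Kit by 0.57 in NiO lungs at 1 month, 2 of 9, where 18.9% of all features fell. Tpsab1 was also lower in C60 lungs at 1 month (-0.71, adjusted p = 0.029), against the same controls. Of T cell markers, 2 of 10 were called in NiO lungs over both times. Cd2 rose by 0.69 at 3 days, where 11% of all features rose, and Zap70 fell by 0.52 at 1 month, where 18.9% fell. Of 10 alveolar type II markers, 4 rose at 1 month and 2 at 3 days in NiO lungs, where 11.9% and 11% of all features rose. Among them the lysosomal protein Lamp3 rose by 0.59 and 0.77. The 3-day count of these markers was 6 without NiO lung 1. It was 1 without any 1 of the control lungs or without NiO lung 2 or 3.

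The genes most like each of the 5 were ranked by Pearson correlation of log2 levels over the 21 arrays. Since these arrays share groups, slides and scan days, the values describe likeness only. Arg1 was followed most closely by the macrophage elastase Mmp12 (r = 0.98), the lysosomal protease Ctsd (0.97), Itih1 (0.97), Slc26a4 (0.96) and C4bpa (0.96). Over the 12 arrays of 1 month alone, C4bpa (0.97) and Slc26a4 (0.97) were again among its first 5, with Tnfsf13 (0.98), Myo5a (0.96) and Acp5 (0.96). Retnla had looser partners, led by Prodh2 (0.81), Arl11 (0.81) and Cab39l (0.80), with Smpdl3a (0.78) and Dab2 (0.78), and none of these was among its first 5 at 1 month, which were Slc5a6 (0.97), Pnpla7 (0.96), Brms1 (0.95), Tmem160 (0.95) and Desi1 (0.95).

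Alox15 was closest to Drc1 (0.87), a regulator of motile cilia, and to Alox5 (0.85), then Tesc (0.84), Fam3d (0.82) and Clec2l (0.81). At 1 month the airway mucin Muc5b (0.90) and Tesc (0.88) were among its first 5, after Myh3 (0.94), Eda (0.93) and Tcte1 (0.91). Slc7a2 probe A_44_P313684 was closest to the other arginine transporter Slc7a7 (0.90), then Pld3 (0.88), Hk3 (0.87), Capg (0.87) and Chi3l1 (0.86), and at 1 month to Bcat1 (0.97), Trem2 (0.96), Atp6v0d2 (0.96), Fcgr2a (0.96) and Ak4 (0.95). Slc7a2 probe A_43_P12265 had a different set, Npas3 (0.87), Gdf5 (0.87), Aknad1 (0.87), Myo3b (0.86) and Scn10a (0.86), and at 1 month Slc16a14 (0.94), Scn10a (0.92), Mylk2 (0.91), Npas3 (0.90) and Il9r (0.89). Of the C60 arrays used, none was well above background on either Slc7a2 probe, nor was any 3-day control array on A_44_P313684. The correlations of both probes thus rest in part on background readings. Between the 5 genes themselves, Arg1 ran against Alox15 (r = -0.80) and with Slc7a2 probe A_44_P313684 (0.71), and Retnla followed Arg1 loosely (0.58) and ran against Alox15 (-0.52).

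A promoter sequence, from RefSeq on assembly GRCr8, was at hand for 1 of the 5 genes, Retnla, as 250 bases before to 50 after its start. Searched on both strands, it held no match to the Stat6 motif (TTC and GAA with 4 bases between), found in 7.28% of 33469 promoters of that length, to the Stat motif TTCNNNGAA (8.87%), to the C/EBP core TTGCNNAA (10.6%) or to the kappaB consensus (4.18%). The absence of a match says only that these letters are not in this window.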

How the data were processed

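RNA of 6 groups of rat lungs was read on 23 one-colour arrays, of which 21 were used. Per the file headers, Feature Extraction 9.5.3.1 (protocol GE1-v5_95_Feb07, grid build rn4) made the deposited spot intensity values, which were already corrected for background. The authors' deposited table holds 1 linear ratio per probe and group, made in a way that no header or label describes. For C60 at 3 days the label states n = 2, but 4 arrays came with it. Arrays 1 and 2 matched that table best (median difference 0.00082 log2 units, against 0.109 for all 4) and were used. Their negative control spots had a mean net signal of 142.69 and 64.4, against 40.78 and 34.18 on arrays 3 and 4. On the other arrays used it was at most 37.35. Of their spots 57.42% and 60.69% were well above background, against 78.13% and 76.51% on arrays 3 and 4. The part of this in the C60 values of 3 days was not tested.

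Outlier spots were left out, spots of a probe averaged, and the log2 of the deposited intensity taken minus the 75th percentile of the array. Probes had to be well above background on every array of at least 1 group. The brightest probe stood for a gene. Names came from the files through RefSeq symbols (assembly GRCr8), and 21496 of 41012 probes had none. Over 25225 features, 1 limma fit (version 3.58.1, R 4.3.3) covered the 6 groups with Benjamini-Hochberg adjustment, and all p-values are from it, two-sided. They measure the spread between arrays, whose number limits the precision. The fit was tested on simulated data. The members and lists were chosen with earlier results of these data known. Named genes are, per list, up to 5 (NiO) or 2 (C60) called genes with the largest change and no overlap between groups, plus a fixed set named whatever their values. The values of 1 listed gene are not reported here, though it stays in the counts of its list. No difference between the times is given where, at either time, a group was above background on no array. Marker genes and the probe readings beside them were named after their values were seen. Alternatives were normexp background correction (offset 50), quantile or median scaling, all 4 C60 arrays, other filters, pairwise fits, left-out arrays, other probes and the deposited table.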

Additional observations from a re-analysis of the deposited data

Results flagged for a closer look

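In 2 of 24 groups of 4 arrays, a single array stood apart from the rest by Dixon's test, which flags about 1 group in 20 by chance: an NiO lung of 1 month at 4.58 for Arg1, and a C60 lung of 1 month at -6.72 for Slc7a2 probe A_43_P12265.

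The NiO effect differed between 1 month and 3 days by the test of that difference itself in 22 of the named genes. As 1 month minus 3 days on the log2 scale, it was lower at 1 month for Arg1 (-1.58), Ccl22 (-2.08), Il2rg (-2.05), Ccl11 (-1.94), Cxcl9 (-1.14), Ccl17 (-1.11), Gbp2 (-0.96), Nfkbiz (-0.85), Sat1 (-0.74) and Pla2g4a (-0.63). It was higher at 1 month for Il4r (2.06), Cebpb (1.94), Ass1 (1.38), Nos3 (1.38), Lta4h (1.03), Srm (0.98), Alox5 (0.90), Il1rn (0.89), Ptgis (0.87), Il13ra1 (0.50), Cd40 (0.42) and Gpx4 (0.41). The 3 other probes of Il13ra1 ran the opposite way, with NiO effects of -0.35, -0.46 and -0.36 at 1 month and 0.06, -0.02 and -0.12 at 3 days. Of all features, 37.5% were called in that contrast. The C60 effect differed in the same way for Nos3 (1.62), Cebpb (1.18), Srm (0.82), Alox5 (0.58), Gpx4 (0.47) and Pla2g4a (-0.57), beside 10.4% of all features. Apart from Arg1, a member, these genes were named for a large called change at 1 or both times, measured on the same arrays. Such a choice favours a difference between the times, so these counts cannot be set against the shares of all features. The times were scanned on different days.

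The 2 C60 arrays of 3 days that entered no comparison read 1.05 and 0.23 for Retnla, above all 3 control lungs of that time, and 2.55 and 2.39 for Arg1, also above them. For Alox15 they read -1.57 and -3.77, the second below all 3 control lungs. Unlike the C60 arrays used, they were well above background on both Slc7a2 probes. There they read -4.90 and -4.56 on A_43_P12265 and -5.60 and -5.44 on A_44_P313684. For Nos2 they read -6.75 and -5.65, the second well above background.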

How the results depend on the processing

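Of 231 values of the 5 genes recomputed under an alternative, 213 moved by less than the spread between arrays. Arg1 at 1 month was 1.34 for NiO and 0.16 for C60 with scaling by the array median, and 1.34 and 0.17 in the authors' deposited table. Alox15 in NiO lungs at 3 days was -1.17 with normexp. Slc7a2 depended on the probe: for A_44_P313684 the other probe gave -0.45 (NiO) and -1.75 (C60) at 1 month and 0.60 (NiO) at 3 days, normexp gave 0.14 and 0.45 for NiO at 1 month and 3 days, and quantile normalization 2.03 for NiO and 0.31 for C60 at 1 month. For A_43_P12265 the other probe gave 1.32 and -0.40 for NiO and C60 at 1 month and 1.16 for NiO at 3 days, normexp -0.20 for C60 at 1 month, and quantile normalization 0.12 for NiO and -1.20 for C60. The cause was not tested.

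Leaving out 1 array at a time gave, for Retnla, 2.25 to 3.18 (NiO) and 0.69 to 1.62 (C60) at 1 month and 2.04 to 3.28 and 1.23 to 2.47 at 3 days. Arg1 gave 0.77 to 1.10 and -0.27 to -0.06 at 1 month and 2.45 to 2.75 and 0.03 to 0.15 at 3 days. Alox15 gave -1.38 to -0.65 and 0.83 to 1.45 at 1 month and -2.79 to -2.14 and -0.60 to 0.00 at 3 days. Slc7a2 probe A_43_P12265 gave -0.73 to -0.27 and -2.03 to -1.54 at 1 month and 0.44 to 0.82 (NiO) at 3 days. Slc7a2 probe A_44_P313684 gave 1.10 to 1.46 and -0.53 to -0.25 at 1 month and 0.98 to 1.41 (NiO) at 3 days. Features called for NiO ranged from 5298 to 7605 at 1 month (7782 with all arrays) and from 2238 to 9714 at 3 days (4745), and genes of the 6 lists from 24 to 33 (33) and 21 to 50 (29). The 9714 and 50 came without NiO array 1. For C60 these were 2484 to 5181 (4997) and 4 to 16 (13) at 1 month, and 744 to 916 (1243) and 0 to 2 (5) at 3 days.

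With only the 2 groups compared, NiO at 3 days had 850 features and 11 list genes, C60 at 1 month 3120 and 8, and C60 at 3 days 3 list genes. Without NiO arrays 2 and 3 of 3 days these were 1584 and 17. With all 4 C60 arrays, C60 at 3 days had 2984 and 13. C60 at 1 month had 22 list genes with quantile normalization, and 8546 features and 37 list genes with median scaling. C60 at 3 days had 3 with quantile and 1 with median scaling. Median scaling moved the median of all features at 1 month from -0.12 to 0.21 for NiO and from -0.09 to 0.22 for C60. The share of calls that were higher was then 77.5% and 78.6%, and 55.5% and 55.4% with quantile normalization, beside 38.7% and 36.8%. For NiO at 3 days it was 34.6% and 45.6%, beside 58.5%. For C60 at 1 month it was 52.5% with normexp. Ptger4 in NiO lungs at 1 month turned to 0.025 with quantile normalization. Of 1123 values of named genes, 984 kept direction and side of the threshold, 127 lost the threshold and 11 gained it.

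No paired analysis was made, because the labels give no pairing of lungs between groups. Dim probes limit Slc7a2 and Nos2 most.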
